A study of Mus musculus with 8 samples.

Results

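The glucocorticoid receptor, the enzymes that set how much hormone reaches it, a set of its classic target genes and the metallothioneins were examined in notochord-derived cells (NDCs) of the mouse at 2 stages, day 12.5 of gestation (E12.5) and the day of birth (P0). The rule names the genes and uses no measured value, although the set was chosen with earlier results of these data known. It holds 10 genes: Nr3c1, Hsd11b1, Hsd11b2, Fkbp5, Tsc22d3, Zbtb16, Per1, Klf9, Mt1 and Mt2. They are 10 of the 43346 gene identifiers counted, and all 10 were among the 15467 genes with enough counts to be tested.

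Glucocorticoids are steroid hormones that enter the cell and bind the receptor encoded by Nr3c1, which is held in the cytoplasm by heat shock proteins until the hormone arrives. The bound receptor moves to the nucleus and raises or lowers the transcription of target genes, often through DNA elements to which it binds as a dimer. Before that, the enzyme encoded by Hsd11b1 can regenerate active hormone from its inert form, and the enzyme encoded by Hsd11b2 does the opposite. Metallothioneins are small cysteine-rich proteins that bind zinc and copper, and their genes respond to metals through the factor Mtf1 as well as to glucocorticoids. Hormone levels in the fetus rise before birth, and glucocorticoids act on skeletal and blood cells.

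All animals were Shh-cre;ROSA:YFP mice, in which Cre driven by Shh turns on YFP in cells that express SHH and in their progeny. Each of the 8 samples was the pooled RNA of the embryos or pups of a single litter, with the litters NDP10.2, NPD3, NPD4 and NPD9.2 at E12.5 and NPD26, NPD27, NPD28 and NPD30 at P0. The labels name no treatment at either stage. At E12.5 the notochord was dissected whole and frozen in TRIzol without sorting, whereas at P0 the cells of the nucleus pulposus (NP) were shaken loose from opened discs and sorted for YFP, so stage and isolation method cannot be told apart. Reads of 100 bases were counted per gene.

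The reads assigned to genes numbered 4442775 to 7180221 per litter at E12.5 and 6371842 to 8904050 at P0. Levels are given as CPM, the count of a gene scaled to the size of its library, on TMM library sizes, a scaling that allows for the makeup of each library, and 3 counts correspond to 0.351 to 0.735 CPM. Every difference is a log2 fold change of P0 over E12.5 from edgeR's quasi-likelihood test with its standard error (SE), and p-values were adjusted over all genes tested. At an adjusted p under 0.05, 27.9% of all genes tested were called, 16.0% as higher and 12.0% as lower at P0, and the median log2 fold change of all genes was 0.04. The notochord gene T (brachyury) was found in every litter, at 241.5 to 942.2 CPM at E12.5 and 573.8 to 2323 CPM at P0, while Noto, another notochord gene, was at 0.433 CPM or less in all 8 litters.

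Of the 10 genes, 3 were higher at P0 (Nr3c1, Hsd11b1 and Per1), 1 was lower (Hsd11b2) and 6 did not pass the test (Fkbp5, Tsc22d3, Zbtb16, Klf9, Mt1 and Mt2). The receptor and both hormone-converting enzymes thus differed between the stages, while the metallothioneins and 4 of the 5 target genes were not shown to. The share called was 40.0%, beside 27.9% of all genes, and the median log2 fold change of the 10 was 0.71. For Nr3c1, Hsd11b1 and Hsd11b2 the litters of the stages did not overlap, and 29.9% of all genes tested showed no overlap. The RNA came from mixtures of cells, in which fewer cells of a type and less RNA per cell cannot be told apart.

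**Figure D1:**
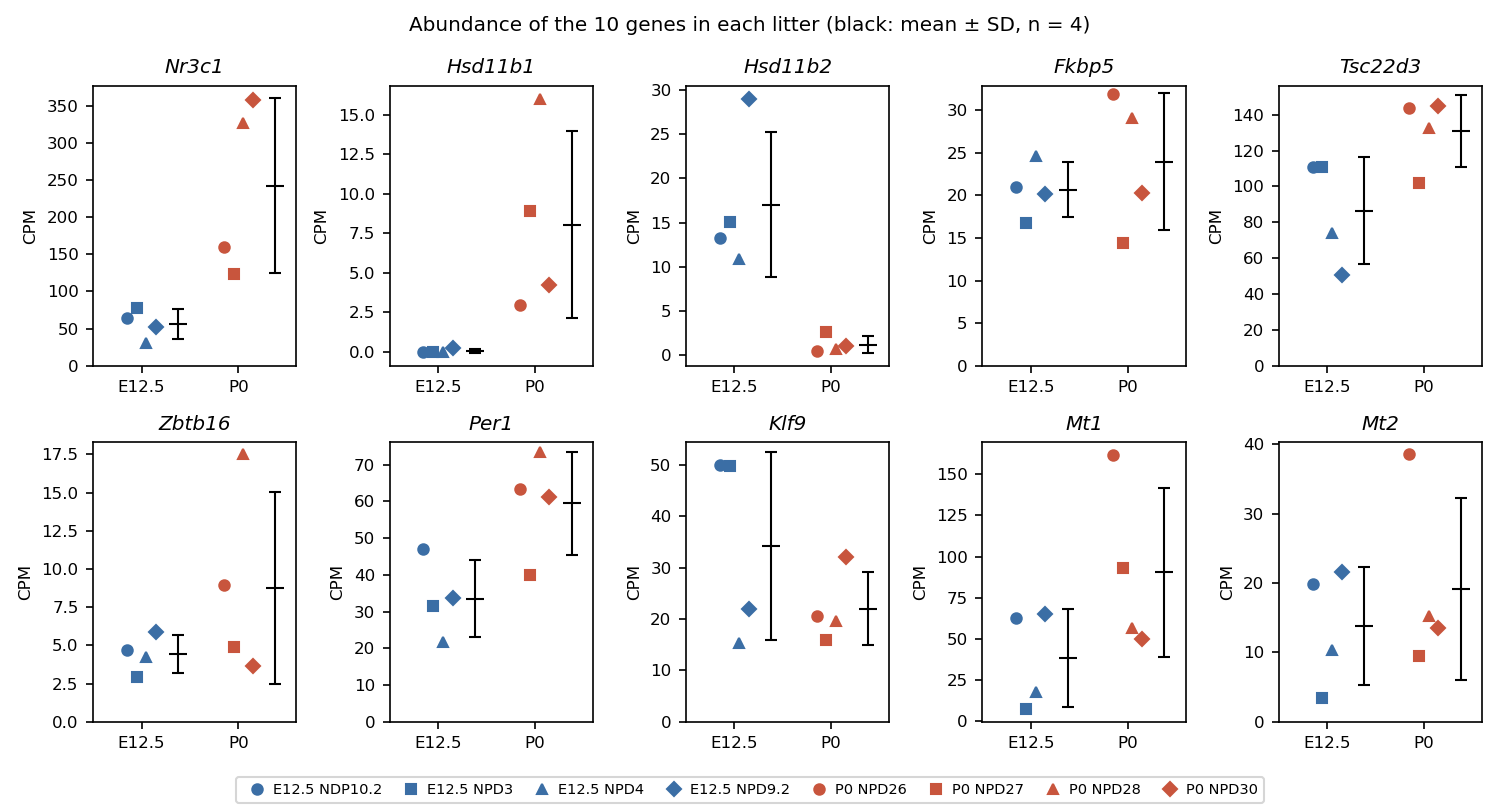
Level of each of the 10 genes in CPM (vertical axes, linear) in the 4 E12.5 litters (blue) and the 4 P0 litters (red), with the mean and SD of each stage in black. Nr3c1 and Hsd11b1 lie higher in every P0 litter and Hsd11b2 lies lower in every P0 litter, while the stages overlap for the other 7 genes.

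**Figure D2:**
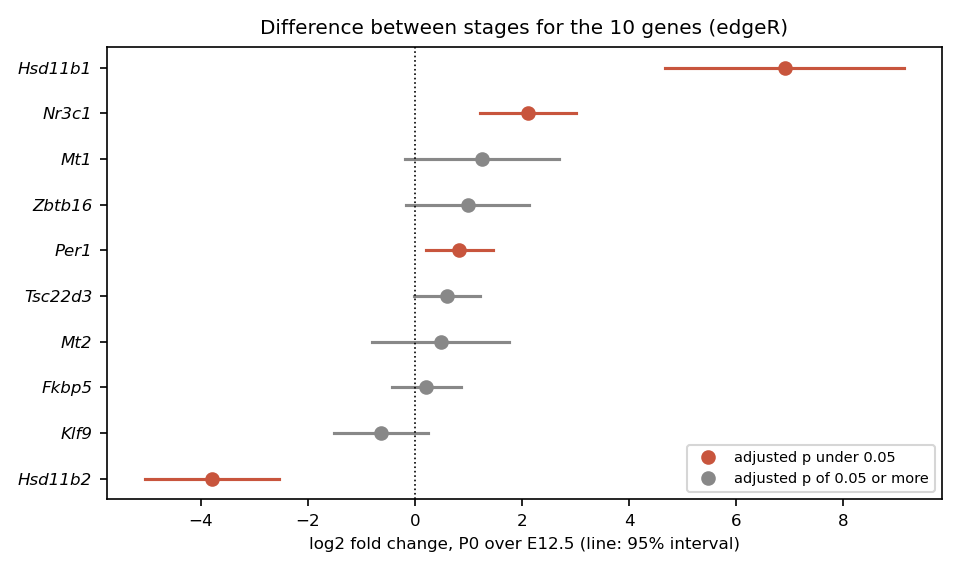
Log2 fold change of each gene between the stages (points) with its 95% interval (lines), red where the adjusted p was under 0.05. The values run from -3.79 for Hsd11b2 to 6.90 for Hsd11b1, and the lines of 6 genes cross 0.

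Nr3c1 (chr18:39410545-39519421, GRCm38), the receptor gene, was at 64.6, 77.9, 30.1 and 52.4 CPM in the E12.5 litters NDP10.2, NPD3, NPD4 and NPD9.2. At P0 it was at 160.6 CPM in NPD26, 123.6 CPM in NPD27, 327.7 CPM in NPD28 and 358.7 CPM in NPD30. The lowest P0 litter thus lay above the highest E12.5 litter, and the P0 litters themselves fell into a lower and a higher pair. The means were 56.2 ± 20.3 CPM (SD, n = 4) and 243 ± 118 CPM (SD, n = 4). Nr3c1 rose by 2.11 (SE 0.41) on the log2 scale with an adjusted p of 0.0036. It stayed past the test in 8 of 8 fits that left out a litter. The call was lost when both NDP10.2 and NPD9.2 were left out, with a log2 fold change of 2.13 and an adjusted p of 0.0563.

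Leukocytes use the same receptor, and 14 of 14 leukocyte markers were higher at P0. Their summed level was 84.9 to 206 CPM at E12.5 and 5434, 6222, 6459 and 643 CPM in NPD26, NPD27, NPD28 and NPD30. NPD30, with the lowest leukocyte signal among the P0 litters, held the highest Nr3c1 level. It also stood apart in the notochord and NP markers, which summed to 33320 CPM against 8580 to 13340 CPM in the other P0 litters, and the 4 P0 litters stood in the same order for T and Nr3c1. The part of leukocytes and of notochord cell content in the Nr3c1 difference was not tested. With NPD30 as the only P0 litter the difference in Nr3c1 was 2.72, in a fit in which that litter is assumed to vary like the others. NPD30 held the highest Nr3c1 level, so its choice favoured a larger value than the 2.11 of all litters. That value therefore does not bear on the part of leukocytes.

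The partners of the receptor were followed in a list of 21 genes for the receptor, its chaperones and its coregulators. Leaving out Nr3c1 and Fkbp5, 2 of 19 were higher at P0 and 0 were lower, which is 10.5% called beside 27.9% of all genes, and the median log2 fold change was 0.23. The coactivator Ncoa3 rose by 1.21 (adjusted p = 0.034) and the chaperone Hspa8 by 0.76 (adjusted p = 0.044). Of the genes of Hsp90 chaperones, Hsp90aa1 was not called (log2 fold change 0.48, adjusted p = 0.25). Neither was the more abundant Hsp90ab1 (log2 fold change 0.05, adjusted p = 0.91), nor the mineralocorticoid receptor gene Nr3c2, at 0.39. NPD30 was at 58.1 CPM for Ncoa3, within the E12.5 range of 56.6 to 83.9 CPM, unlike the other P0 litters at 133.5 to 244 CPM. In the fit with NPD30 alone at P0, Ncoa3 and Hspa8 were not called, nor were they when NDP10.2 and NPD9.2 were left out.

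Hsd11b1 (chr1:193221634-193264075), the gene of the enzyme that regenerates active glucocorticoid, had 0, 0, 0 and 1 counts in the E12.5 litters NDP10.2, NPD3, NPD4 and NPD9.2. In NPD26, NPD27, NPD28 and NPD30 it had 19, 62, 136 and 28 counts, or 2.99, 8.94, 16.0 and 4.24 CPM. It was therefore at or near 0 at E12.5 and found in every P0 litter at a low level. A count of 0 allows up to 3 counts, which is 0.705 CPM in NDP10.2, 0.583 CPM in NPD3 and 0.361 CPM in NPD4. Pooled over litters, 245 counts of 28776410 at P0 stand against 1 of 21243301 at E12.5, a ratio of 180.9 with an exact 95% interval of 32.2 to 7173 that covers counting error only. The edgeR log2 fold change was 6.90 with an adjusted p of 0.00089, a size that depends on the prior count because the E12.5 counts are so few. It was past the test in 8 of 8 fits that left out a litter. With NPD30 alone at P0 the adjusted p was 0.0699.

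Hsd11b1 is also used by leukocytes, and NPD26, NPD27 and NPD28 stood in the same order for Hsd11b1 and for their leukocyte sums of 5434, 6222 and 6459 CPM. NPD30 did not share that order, since it held more Hsd11b1 than NPD26 at a leukocyte sum of 643 CPM. Neutrophil markers summed to 4.01 to 15.8 CPM at E12.5 and to 764, 803, 6678 and 973 CPM in NPD26, NPD27, NPD28 and NPD30, so NPD28 was highest for both Hsd11b1 and these markers, of which 7 of 7 tested were higher at P0. Osteoblasts can express the enzyme as well, and their markers summed to 31.3 to 252 CPM at E12.5 and 1082 to 1871 CPM at P0, with 6 of 6 tested markers higher. The P0 cells had been sorted for YFP of the Shh lineage, a gate meant to leave out both cell types, whose markers were nonetheless counted. The part of these cells in the Hsd11b1 difference was not tested.

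Hsd11b2 (chr8:105518755-105523988), the gene of the enzyme that inactivates glucocorticoid, showed the opposite pattern. Its counts were 56, 77, 90 and 118 at E12.5 against 3, 18, 6 and 7 at P0, in the same order of litters as above. In CPM these were 13.2, 15.03, 10.9 and 29.0 at E12.5 and 0.472, 2.60, 0.706 and 1.06 at P0. The highest P0 litter lay well below the lowest E12.5 litter, and NPD26 was at 3 counts, the level taken as the floor. Hsd11b2 fell by 3.79 (SE 0.57) on the log2 scale with an adjusted p of 0.0010. It remained past the test in all 17 alternatives that could test it. Markers of the sclerotome, the embryonic tissue around the notochord, moved the same way and summed to 122 to 200 CPM at E12.5 and 5.06 to 16.3 CPM at P0, with 7 of 7 lower. Other marker lists fell too, with 6 of 7 skeletal muscle markers and 7 of 8 tested serum protein markers of fetal liver and yolk sac lower. Of 11 tested notochord and NP markers, 2 (Shh and Foxa1) were lower and 4 were higher. The part of any of these tissues in the Hsd11b2 difference was not tested.

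Because both enzymes act on the same pair of steroids, their counts were also compared within each litter, which removes library size. With 0.5 added to each count, the log2 ratio of Hsd11b1 to Hsd11b2 was -6.82, -7.28, -7.50 and -6.30 at E12.5 and 2.48, 1.76, 4.39 and 1.93 at P0. Hsd11b2 was thus the more abundant transcript in every E12.5 litter and Hsd11b1 in every P0 litter, although these counts are not scaled by transcript length. The means of -6.98 ± 0.53 (SD, n = 4) and 2.64 ± 1.21 (SD, n = 4) differed by 9.61. The two-sided exact permutation test gave p = 0.0286, the smallest that 4 against 4 litters allow, and 0.0286 after adjustment over the 2 ratios tested. Since neither gene overlapped between the stages and they moved in opposite directions, the ratio had to separate. This p was thus set in advance and adds no support beyond the results of each gene.

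In the full list for glucocorticoid metabolism and transport, 8 of 13 genes had enough counts to be tested. The genes that were not tested included Cyp11a1, Cyp11b1 and Cyp21a1 of steroid synthesis. Without Hsd11b1 and Hsd11b2, 1 of 6 was higher and 1 was lower, which is 33.3% called beside 27.9% of all genes. Por, the electron donor of microsomal cytochrome P450 enzymes, rose by 1.10 (adjusted p = 0.036). Serpina6, which encodes the corticosteroid-binding globulin of plasma, fell by 4.37 (adjusted p = 0.019). Serpina6 was at 68.4 and 58.0 CPM in NDP10.2 and NPD9.2, at 2.73 and 4.72 CPM in NPD3 and NPD4, and at 0 to 2.99 CPM at P0. The E12.5 litters were therefore split, and NPD3 lay within the P0 range. H6pd, which supplies the cofactor of the Hsd11b1 enzyme, had a log2 fold change of 0.86 and did not pass the test. Neither Por nor Serpina6 was called with NPD30 as the only P0 litter or without NDP10.2 and NPD9.2.

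Among the 5 target genes of the set, Per1 was the only one called. Per1 (chr11:69095217-69109960), a clock gene with a direct response to glucocorticoids, was at 47.2, 31.4, 21.9 and 33.7 CPM at E12.5 and 63.4, 39.9, 73.3 and 61.2 CPM at P0. The stages overlapped, since NPD27 lay below NDP10.2. Per1 rose by 0.83 (SE 0.28) on the log2 scale with an adjusted p of 0.0497, just inside the threshold. The call was lost in 11 of 18 alternatives, among them 6 of the 8 fits without a litter, in which it held only without NDP10.2 or without NPD27. Its log2 fold change lay between 0.66 and 1.12 over all alternatives.

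Tsc22d3 (chrX:140539528-140600659) encodes GILZ, an anti-inflammatory protein whose gene is a standard readout of the receptor. It was at 110.6, 111.0, 74.2 and 50.4 CPM at E12.5 and 143.9, 101.7, 132.5 and 145.1 CPM at P0. Only NPD27 among the P0 litters lay below the highest E12.5 litter. The log2 fold change was 0.60 (SE 0.28) with a 95% interval of -0.02 to 1.21 and an adjusted p of 0.139. No alternative called it.

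Fkbp5 (chr17:28399094-28517527) encodes a cochaperone that lowers the affinity of the receptor for hormone and is itself induced by the receptor. It was at 21.0, 16.8, 24.7 and 20.2 CPM at E12.5 and 31.9, 14.4, 29.1 and 20.3 CPM at P0. Both the lowest and the highest litter belonged to P0. The log2 fold change was 0.21 (SE 0.29) with a 95% interval of -0.43 to 0.86 and an adjusted p of 0.634. The interval leaves room for a difference of either sign but not for one as large as that of Nr3c1.

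Zbtb16 (chr9:48654297-48836222) encodes the transcription factor PLZF and was found at low levels, at 4.72, 2.93, 4.23 and 5.90 CPM at E12.5. At P0 it was at 8.96, 4.90, 17.5 and 3.64 CPM, so NPD28 stood highest and NPD30 lay within the E12.5 range. The log2 fold change was 0.99 (SE 0.52) with a 95% interval of -0.16 to 2.13 and an adjusted p of 0.187. In the fit with NPD30 alone at P0 it was -0.24.

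Klf9 (chr19:23141226-23168134), a Krüppel-like factor gene induced by glucocorticoids and thyroid hormone, was the only target gene of the set with a negative value. It was at 50.0, 49.8, 15.4 and 21.9 CPM at E12.5 and 20.6, 15.9, 19.5 and 32.1 CPM at P0. NDP10.2 and NPD3 lay above every P0 litter, and NPD4 lay below every P0 litter. The log2 fold change was -0.63 (SE 0.40) with a 95% interval of -1.52 to 0.25 and an adjusted p of 0.269.

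The metallothionein genes lie next to each other on chromosome 8, with Mt2 at chr8:94172664-94173568 and Mt1 at chr8:94179082-94180327, both on the plus strand. The 250 bases upstream of the start of each are printed because this is where the genes' metal response elements are sought, with the cores TGCACNC and TGCGCNC, on either strand, in capitals. They are RefSeq sequences on GRCm38.p6, chr8:94178839-94179088 for Mt1 and chr8:94172368-94172617 for Mt2, read on the plus strand.
Mt1: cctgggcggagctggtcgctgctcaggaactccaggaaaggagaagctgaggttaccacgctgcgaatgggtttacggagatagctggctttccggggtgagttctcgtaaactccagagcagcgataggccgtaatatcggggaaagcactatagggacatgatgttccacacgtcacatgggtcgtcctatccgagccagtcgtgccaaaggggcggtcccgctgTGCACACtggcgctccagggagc
Mt2: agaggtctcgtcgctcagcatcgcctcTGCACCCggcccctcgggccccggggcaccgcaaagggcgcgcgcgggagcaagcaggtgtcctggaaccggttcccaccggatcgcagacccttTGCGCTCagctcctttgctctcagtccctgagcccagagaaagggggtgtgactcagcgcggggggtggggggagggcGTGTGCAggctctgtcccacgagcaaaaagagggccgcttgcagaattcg
The stretch of Mt1 holds 1 metal core and that of Mt2 holds 3. With the next 50 bases after the start the counts are 3 and 4. Of all 32851 promoter windows of 300 bases in the RefSeq table, 25.7% hold at least 1 such core and 0.518% hold 4 or more. Which start site was used in these cells was not measured.

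The 300-base windows of the 7 genes of the set that were looked up (Hsd11b1, Fkbp5, Tsc22d3, Per1, Klf9, Mt1 and Mt2, 10 windows in all) were also searched for glucocorticoid response elements. None held AGAACA and TGTTCT separated by 3 bases, and neither did most other promoters, since 3 of 32851 did. TGTTCT on either strand, with no second element required, was found in 1 of the 3 windows of Tsc22d3 and in none of the other genes, beside 19.0% of all windows. The antioxidant core, TGAC and GC separated by 3 bases, on either strand was found in Hsd11b1, in 1 window of Per1 and in Mt2, beside 12.4% of all windows. The promoters of Hsd11b2, Zbtb16 and Nr3c1 were not analysed here.

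Mt1 was at 62.5, 7.22, 17.9 and 64.9 CPM in NDP10.2, NPD3, NPD4 and NPD9.2 and at 161.7, 93.0, 56.7 and 50.0 CPM in NPD26, NPD27, NPD28 and NPD30. Mt2 was at 19.8, 3.51, 10.4 and 21.6 CPM at E12.5 and 38.5, 9.52, 15.3 and 13.5 CPM at P0. For both genes NDP10.2 and NPD9.2 were the high E12.5 litters and NPD26 was the highest litter of all. The log2 fold change was 1.25 (SE 0.65, adjusted p = 0.182) for Mt1, with a 95% interval of -0.19 to 2.69. For Mt2 it was 0.48 (SE 0.57, adjusted p = 0.576), with a 95% interval of -0.79 to 1.75. Without NPD26 the value for Mt2 was -0.095. Of the exonic bases of Mt2, 73.5% lie opposite exons of Gm45774 in the later annotation M21, so reads of the 2 strands cannot be told apart if strand was not used in counting.

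The split of the E12.5 litters in Mt1 and Mt2 was shared by markers of blood and of serum protein genes that are active in fetal liver and yolk sac. The serum protein markers summed to 702 and 786 CPM in NDP10.2 and NPD9.2, to 68.7 and 260 CPM in NPD3 and NPD4, and to 7.43 to 70.4 CPM at P0, where 7 of 8 tested were lower. Most of the P0 sum in NPD26, NPD27 and NPD28 came from Trf, at 56.8, 64.6 and 18.8 CPM. Trf was the tested marker not lower, with a log2 fold change of 2.11 (adjusted p = 0.073). The erythroid markers summed to 24890 and 49450 CPM in NDP10.2 and NPD9.2, to 10170 and 10510 CPM in NPD3 and NPD4, and to 407 to 1288 CPM at P0, where 6 of 11 were lower and 1 was higher. The 4 E12.5 litters stood in the same order for Mt1, Mt2 and both marker sums. The assignment of reads was split as well. Of the tallied reads, 22.6% and 24.6% were on genes in NDP10.2 and NPD9.2, beside 32.6% and 33.7% in NPD3 and NPD4. Ambiguous reads made up 16.3% and 17.5% in the first pair, beside 11.6% and 10.6% in the second. Without NDP10.2 and NPD9.2 the log2 fold change of Mt1 was 2.80 with an adjusted p of 0.0313, in a fit that called 15.2% of all genes. NDP10.2 and NPD9.2 held the highest Mt1 levels at E12.5, so leaving them out had to enlarge the difference. That fit is therefore no independent support for a rise of Mt1. Mt2 did not pass the test in it. The part of blood or liver transcripts, or of read assignment, in the Mt1 and Mt2 levels was not tested.

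**Figure D3:**
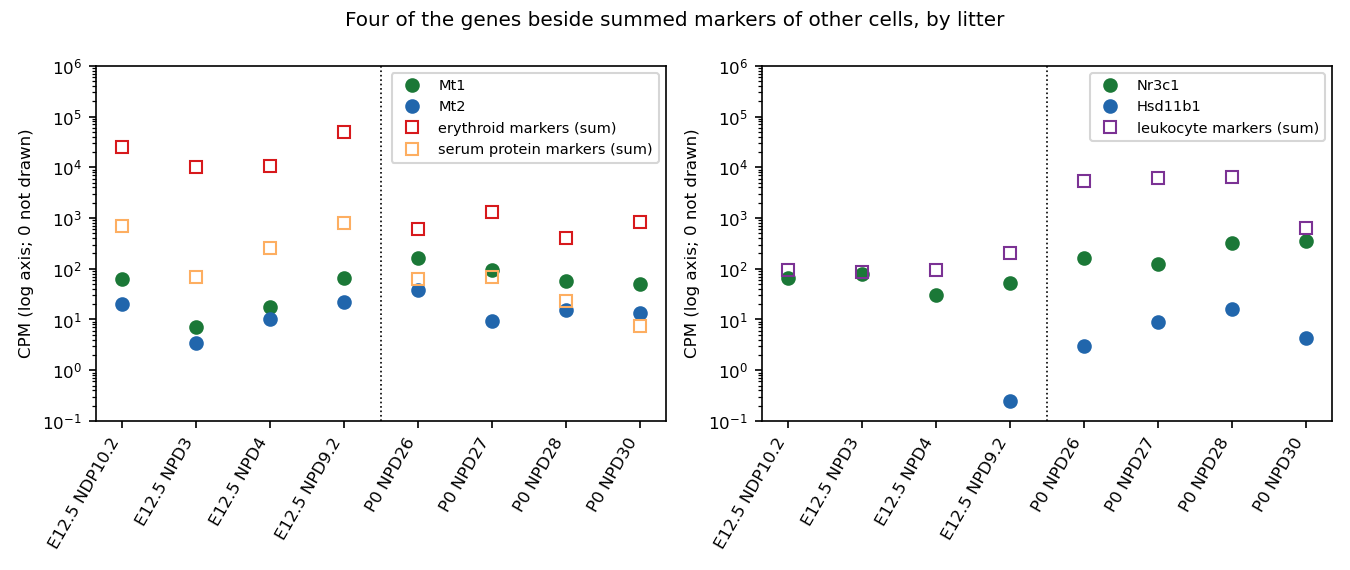
CPM on a log axis in each of the 8 litters for Mt1 and Mt2 with the summed erythroid and serum protein markers (left) and for Nr3c1 and Hsd11b1 with the summed leukocyte markers (right), where litters with 0 counts are not drawn. NDP10.2 and NPD9.2 are the high E12.5 litters on the left, and on the right NPD30 holds the highest Nr3c1 level, 358.7 CPM, beside the lowest leukocyte sum of the P0 litters, 643 CPM.

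The balance between the 2 metallothioneins differed between the stages. The counts of Mt1 were 3.14, 2.03, 1.72 and 2.99 times those of Mt2 at E12.5 and 4.19, 9.71, 3.70 and 3.69 times those of Mt2 at P0, with 0.5 added to each count. Every P0 litter thus lay above every E12.5 litter, and NPD27 stood apart at the top. The log2 ratio averaged 1.26 ± 0.43 (SD, n = 4) and 2.28 ± 0.67 (SD, n = 4), a difference of 1.02. The two-sided exact permutation test gave p = 0.0286, the smallest that 4 against 4 litters allow, and 0.0286 over the 2 ratios. The difference was 0.69 without NPD27 (exact p = 0.0857), 0.86 without NPD4 (exact p = 0.0857) and 1.09 with counts thinned to the smallest library (exact p = 0.0571). The test was thus passed only with both of these litters and at full depth.

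**Figure D4:**
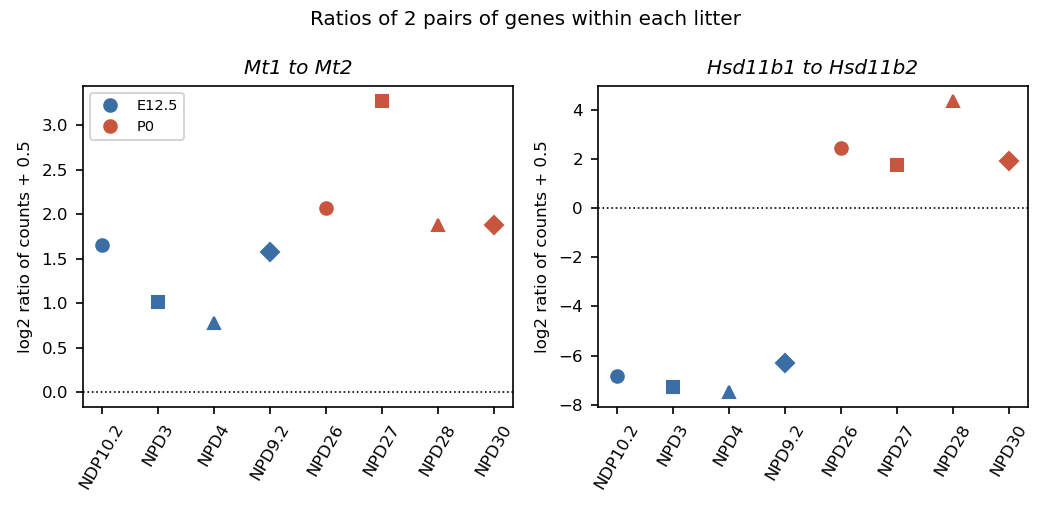
Log2 ratio of counts, with 0.5 added to each, for Mt1 to Mt2 (left) and Hsd11b1 to Hsd11b2 (right) in each E12.5 litter (blue) and P0 litter (red), with the dotted line at equal counts. The Mt1 to Mt2 ratio stays above 0 in all litters, and the Hsd11b1 to Hsd11b2 ratio is below 0 at E12.5 and above 0 at P0.

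Of the 35 genes listed for metallothioneins and metal handling, 32 were tested, and without Mt1 and Mt2 5 were higher and 1 was lower of 30, with a median log2 fold change of 0.52. That is 20.0% called, beside 27.9% of all genes. Mt3, the metallothionein known from the nervous system, was chosen for mention after its values were seen. It was at 0, 0.390, 0.484 and 1.48 CPM at E12.5 and 15.9, 13.1, 2.35 and 10.3 CPM at P0, so the stages did not overlap, and it rose by 4.15 (adjusted p = 0.0039). Slc39a8, a zinc and manganese importer, rose by 2.70 (adjusted p = 0.00096) and was higher in each P0 litter, at 50.6 to 190.0 CPM against 10.85 to 24.1 CPM. The zinc importer Slc39a10 fell by 1.67 (adjusted p = 0.00092), from 99.8 to 153 CPM at E12.5 down to 31.8 to 52.3 CPM at P0.

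Slc40a1, which encodes the iron exporter ferroportin and is abundant in macrophages, rose by 5.75 (adjusted p = 0.0027). It was at 7.61 to 18.9 CPM at E12.5, at 1010, 1114 and 598 CPM in NPD26, NPD27 and NPD28 and at 20.2 CPM in NPD30, which also had the low leukocyte signal. Mtf1, the metal-sensing activator of the metallothionein genes, had a log2 fold change of 0.66 and did not pass the test.

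The wider list of glucocorticoid-induced targets, chosen with earlier results of these data known, held 41 genes. Without the 7 genes of the set that are on it, 18 were higher and 3 were lower of 30 tested, where 27.9% of all genes were called, with a median log2 fold change of 1.29. Lcn2, a secreted iron-trapping protein of neutrophils and other cells, rose by 7.29 (adjusted p = 0.00071). Anxa1, an anti-inflammatory phospholipid-binding protein, rose by 5.19 (adjusted p = 7.9e-05). Cdkn1c, an imprinted inhibitor of the cell cycle, fell by 4.59 (adjusted p = 6.4e-05) and Tgm2, a transglutaminase, by 1.10 (adjusted p = 0.030).

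The litters of these genes show how the change was spread. Anxa1 was at 3.75 to 10.3 CPM at E12.5 and at 216.7, 141.5, 429.8 and 256.1 CPM in NPD26, NPD27, NPD28 and NPD30, so it was high in each P0 litter. Lcn2 was at 0.725 to 1.56 CPM at E12.5 and at 54.9, 68.5, 554.4 and 82.6 CPM at P0, highest in NPD28, which also had the highest neutrophil sum. Cdkn1c was at 1108 to 1378 CPM at E12.5 and 24.3 to 73.5 CPM at P0.

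Of the 18 targets that were higher, 3 (Dusp1, Klf6 and Zfp36) are also on the list of immediate early genes, which many stimuli induce. The 18 were picked with NPD30 among the P0 litters, so the same sign in NPD30 is no independent support. In the fit with NPD30 as the only P0 litter, 15 of the 18 had positive log2 fold changes. In that fit 5 targets were higher and 1 was lower of 31, which is 19.4% beside 6.15% of all genes. Without NDP10.2 and NPD9.2, 8 were higher and 2 were lower of 31, which is 32.3% beside 15.2%. The leukocyte and neutrophil markers were higher at P0 as well, and their part in the differences of this list was not tested.

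**Figure D5:**
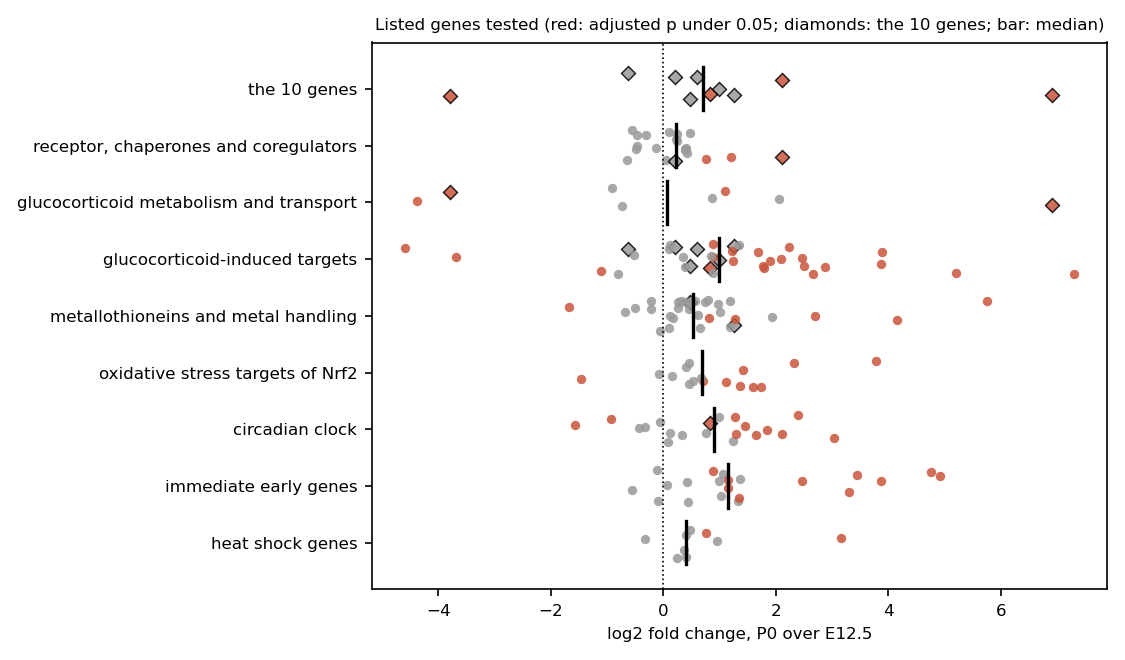
Log2 fold change, P0 over E12.5, of each tested gene of the 9 lists (points spread vertically for sight), red where the adjusted p was under 0.05, with diamonds for the 10 genes and a bar at the median of each list. The median was 0.99 for the glucocorticoid-induced targets and 0.23 for the receptor list, and the 10 genes range from -3.79 to 6.90.

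Neighbouring responses were counted in the same way. Of 21 immediate early genes tested, which respond to handling of tissue as well as to growth factors and hormones, 10 were higher at P0 and 0 lower, which is 47.6% called beside 27.9% of all genes, with a median log2 fold change of 1.15. Fos rose by 4.76 (adjusted p = 0.0019), from 1.21 to 21.5 CPM at E12.5 to 118 to 311 CPM at P0, and Fosb by 4.92 (adjusted p = 0.0035). In the fit with NPD30 alone at P0, 4 of 21 were higher, which is 19.0% beside 6.15% of all genes. Of 9 heat shock genes 2 were higher and 0 lower, which is 22.2% beside 27.9% of all genes. Hspa1b rose by 3.16 (adjusted p = 0.016) although NPD26, at 2.67 CPM, lay within the E12.5 range of 0.725 to 4.92 CPM. The P0 cells alone had been dissociated and sorted, and its part in these differences cannot be told apart from that of stage.

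Of 19 clock genes other than Per1, 8 were higher and 2 were lower, which is 52.6% called beside 27.9% of all genes, with a median log2 fold change of 0.99. Bhlhe41, a repressor of the clock, rose by 3.03 (adjusted p = 0.00029), at 9.31 to 12.9 CPM in the litters of E12.5 and 60.4 to 162.4 CPM in those of P0. The repressor Nr1d1 rose by 2.39 (adjusted p = 0.023), while its P0 litters ranged from 7.64 to 51.1 CPM and the lowest of them lay below NDP10.2, at 7.79 CPM. Ciart fell by 1.56 (adjusted p = 0.030) and the kinase gene Csnk1e by 0.93 (adjusted p = 0.0082). The time of day of collection was not given in the labels, and its part was not tested. When NPD30 stood for P0, 7 of the 19 clock genes were higher and 0 lower, which is 36.8% beside 6.15% of all genes.

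A list of 16 genes covered Nrf2, the factor that answers oxidative stress, its regulator Keap1 and its targets. Of these 8 were higher and 1 was lower, which is 56.2% called beside 27.9% of all genes, with a median log2 fold change of 0.68. The genes called higher include Keap1 (adjusted p = 0.029) and the gene of Nrf2, which are not targets in this list's sense. Hmox1, which degrades heme, rose by 3.78 (adjusted p = 0.017). It was at 205.2, 206.9 and 91.0 CPM in NPD26, NPD27 and NPD28 and at 3.18 CPM in NPD30, below all 4 E12.5 litters. Nfe2l2, which encodes Nrf2 itself, rose by 2.32 (adjusted p = 0.0015) and was higher in each P0 litter, at 51.6 to 222.4 CPM against 26.2 to 29.7 CPM. Gsta4, a glutathione transferase, fell by 1.46 (adjusted p = 0.015). In the fit with NPD30 alone at P0, 1 of the 16 was called, which is 6.25% beside 6.15% of all genes. Without NDP10.2 and NPD9.2, 3 were called, which is 18.8% beside 15.2%.

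Per kilobase of transcript, the 10 genes could be set in an order of their means. The mean of Mt1 came first at both stages, at 69.5 ± 54.4 and 164.6 ± 93.2 CPM per kb (SD, n = 4), followed by Tsc22d3 at 43.9 ± 15.02 and 66.3 ± 10.3. At E12.5 their spreads overlapped, and Tsc22d3 lay above Mt1 in NPD3 and NPD4. At E12.5 Mt2 followed at 27.1 ± 16.6, and then Hsd11b2, Nr3c1, Klf9 and Per1 lay between 7.18 and 9.26 CPM per kb and did not differ from their neighbours beyond their spread. At P0 Nr3c1 was in place 3 at 37.7 ± 18.3, beside Mt2 at 37.6 ± 25.6, and their spreads overlapped. Hsd11b2 moved from place 4 to place 10 of 10, at 0.657 ± 0.520 CPM per kb, and Hsd11b1 from place 10 to place 7, at 4.96 ± 3.63.

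The genes whose profiles over the 8 litters were most like those of the set were found by the root mean square (RMS) difference of log2 CPM, each gene centred on its own mean. For Nr3c1 the likest were Ankrd27 (RMS 0.19), Angptl1 (0.26) and Mbd2 (0.26). For Hsd11b1 they were Rassf5 (0.42), Ikzf1 (0.48) and Cd44 (0.48), all 3 abundant in leukocytes, and for Hsd11b2 they were Robo1 (0.30), Gli2 (0.35) and Cacna1g (0.38). Mt1 was most like Epor (0.38), the erythropoietin receptor gene, followed by Ubtd1 and Vat1, and Mt2 was most like Ogfod2, Azin2 and Cyren. Mt2 ranked 27th of 12687 genes for likeness to Mt1 (RMS 0.70).

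The likest profiles of the 5 target genes were of other genes. They were D17H6S53E, Parpbp and Mvd for Fkbp5, and Pik3ip1, Prr18 and Arl6ip5 for Tsc22d3. For Zbtb16 they were Dgat2, Ppm1m and Pgd, for Per1 they were Tm9sf1, Abr and Kdelc2, and for Klf9 they were Clu, Garnl3 and Rhoj. No gene of the set was among the 3 likest of another. These values describe 8 libraries that share their stage, and likeness of profile is not a test.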

How the data were processed

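RNA of 8 litters (4 per stage) was sequenced as single-end reads of 100 bases from TotalScript libraries. The authors aligned the reads with STAR 2.4.0j to GRCm38.p3 and deposited raw counts per gene from htseq-count on Gencode M4, without normalization. The notes also list CASAVA 1.8.2. The strand setting and the HTSeq version are not given in the sources used here. Stages were taken from the labels.

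From the counts, edgeR 4.0.16 (R 4.3.3) was used with TMM, filterByExpr (minimum count 10, minimum total 15), robust dispersions and the quasi-likelihood F-test, with Benjamini-Hochberg adjustment over 15467 genes. The SE is the size of the log2 fold change divided by the root of F. A prior count of 2 was added for log2 CPM. The script was tested on simulated data. Identifiers were matched to symbols for 42462 of 43346. Positions are from Gencode M21 (GRCm38). No stretch of 100 bases of a transcript of the 10 genes occurs in a transcript of another gene of M21 read in the same direction. This leaves aside the exons of Gm45774, which lie opposite 73.5% of the exonic bases of Mt2.

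The 10 genes and all lists were chosen with earlier results of these data known. Named from each list were the called genes of mean log2 CPM of at least 2 with the 2 largest rises and falls, and for each of the 10 the 3 likest profiles. Further list genes were named outside this rule, among them Hsp90aa1, Hsp90ab1, Nr3c2, H6pd, Mtf1 and Mt3. Alternatives were DESeq2 1.42.0, limma 3.58.1 (voom), DESeq2 size factors, scaling to the upper quartile, the lack of a filter, a filter that keeps genes with 10 or more counts in all 8 samples, hemoglobin and mitochondrial genes left out, thinning to the smallest library, and litters left out. Nothing in the labels names a batch. The exact interval of the pooled Hsd11b1 ratio and the floor of 3 counts cover counting error only. The intervals of the log2 fold changes were built from the SE of the edgeR fit, which also takes in variation between litters. Promoters are RefSeq's (GRCm38.p6), from 250 bases before to 50 after each start, searched on both strands.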

Additional observations from a re-analysis of the deposited data

Results flagged for a closer look

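Of 24 groups of 4 litters examined for a litter far from the others, 2 held one, and chance gives about 1 in 20. At E12.5, Hsd11b1 in NPD9.2 had a log2 CPM of -0.82 while the other 3 litters were at -1.65, which is the difference between 1 count and 0. At P0, the log2 ratio of Mt1 to Mt2 in NPD27 was 3.28 while the other 3 litters lay between 1.88 and 2.07.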

How the results depend on the processing

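Under all alternatives that tested them, Nr3c1 and Hsd11b1 kept a positive and Hsd11b2 a negative difference, with log2 fold changes of 1.82 to 2.72, 5.79 to 8.80 and -4.46 to -3.44. Of all genes 4321 were called, with 5124 by DESeq2, 4064 by limma-voom and 3612 to 4529 in the 8 fits without a litter. With NPD30 as the only P0 litter 1054 of all genes, 2 of the 10 genes and 21 of the listed genes were called, against 58 listed genes with all litters. Without NDP10.2 and NPD9.2 the counts were 2581 of all genes and 30 of the listed genes. These fits rest on fewer samples. With at least 10 counts required in every sample, 2 of the 10 genes were called, because Hsd11b1 and Hsd11b2 were then not tested. Those 8 fits gave 3 to 4 of the 10 genes and 41 to 58 listed genes. The sign was reversed for Zbtb16 with NPD30 as the only P0 litter (-0.24) and for Mt2 without NPD26, where the 8 fits without a litter ran from -0.095 to 0.748. Upper quartile normalization moved the median log2 fold change of all genes by -0.15, gave 3 of the 10 genes and took Per1 to 0.68 (adjusted p = 0.0897). The difference in the Mt1 to Mt2 log2 ratio was 1.09 after thinning and 0.69 to 1.15 over the 8 fits without a litter. The causes were not tested. No paired analysis was possible because the litters of the stages share no label. Depth limits Hsd11b1 at E12.5, Hsd11b2 in NPD26 and Zbtb16, which rest on few counts.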
